A study of Caenorhabditis elegans with 4 samples.

Results

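The abu and pqn genes of the nematode Caenorhabditis elegans were described in whole worms exposed to nitric oxide (NO). Members were the loci of the authors' deposited table with a gene name starting abu- or pqn-, also where the name was one of several joined in a locus. These were 69 of 16562 loci, 8 of them abu and 61 pqn. The study had 4 samples of wild-type (WT) worms at L4, the last larval stage, grown on Escherichia coli OP50: 2 controls, untreated per the series design text, and 2 samples treated with NO. NO came from 1 mM MAHMA NONOate, a donor compound that releases it in solution, and RNA of whole animals was taken after 4 h of recovery at 20 °C. Both groups carry the same treatment text, which leaves the handling of the controls unstated, so handling, donor and NO cannot be told apart. The deposited table gave 1 value per condition, read here as FPKM (fragments per kilobase of transcript, scaled to library size). No value of a single sample was analysed here, which leaves replicate spread and depth unknown, and the labels do not say whether samples of a group were separate cultures.

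The worm feeds with the pharynx, a muscular pump lined by its own cuticle, which is shed and rebuilt at each molt like the cuticle of the body. Many abu genes and their closest pqn relatives encode secreted proteins of cysteine-rich repeats that are made in the pharynx and are associated with that lining, and their transcripts rise and fall with the molting cycle. The abu genes are named "activated in blocked unfolded protein response" because they were found as transcripts induced by stress in the endoplasmic reticulum (ER) when one arm of its response was disabled. The pqn genes are named only for a prion-like domain rich in glutamine and asparagine, so the class also holds nuclear and cytoplasmic proteins with no known link to the pharynx. RNA of whole worms does not show in which tissue a transcript was made, and fewer cells of a type and less RNA per cell cannot be told apart in it.

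All 8 abu loci had higher values after NO than in control, 7 of them by 1.75-fold to 2.14-fold, and none passed the deposited test after adjustment. The pqn loci were spread on both sides, with 33 higher and 28 lower, and of all loci 49.0% were higher. An adjusted p of 0.05 was passed by 0 of 69 abu and pqn loci in the authors' deposited Cufflinks comparison, against 0.386% of all loci in the higher and 0.0121% in the lower direction. A deposited unadjusted p under 0.05 was reached by 3 of 8 abu loci and 5 of 61 pqn loci, each higher after NO, against 2.75% of all loci in that direction. In the lower direction 0 of 69 reached it, against 0.338% of all loci. Whether abu and pqn loci differed from each other in their change was not tested.

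**Figure D1:**
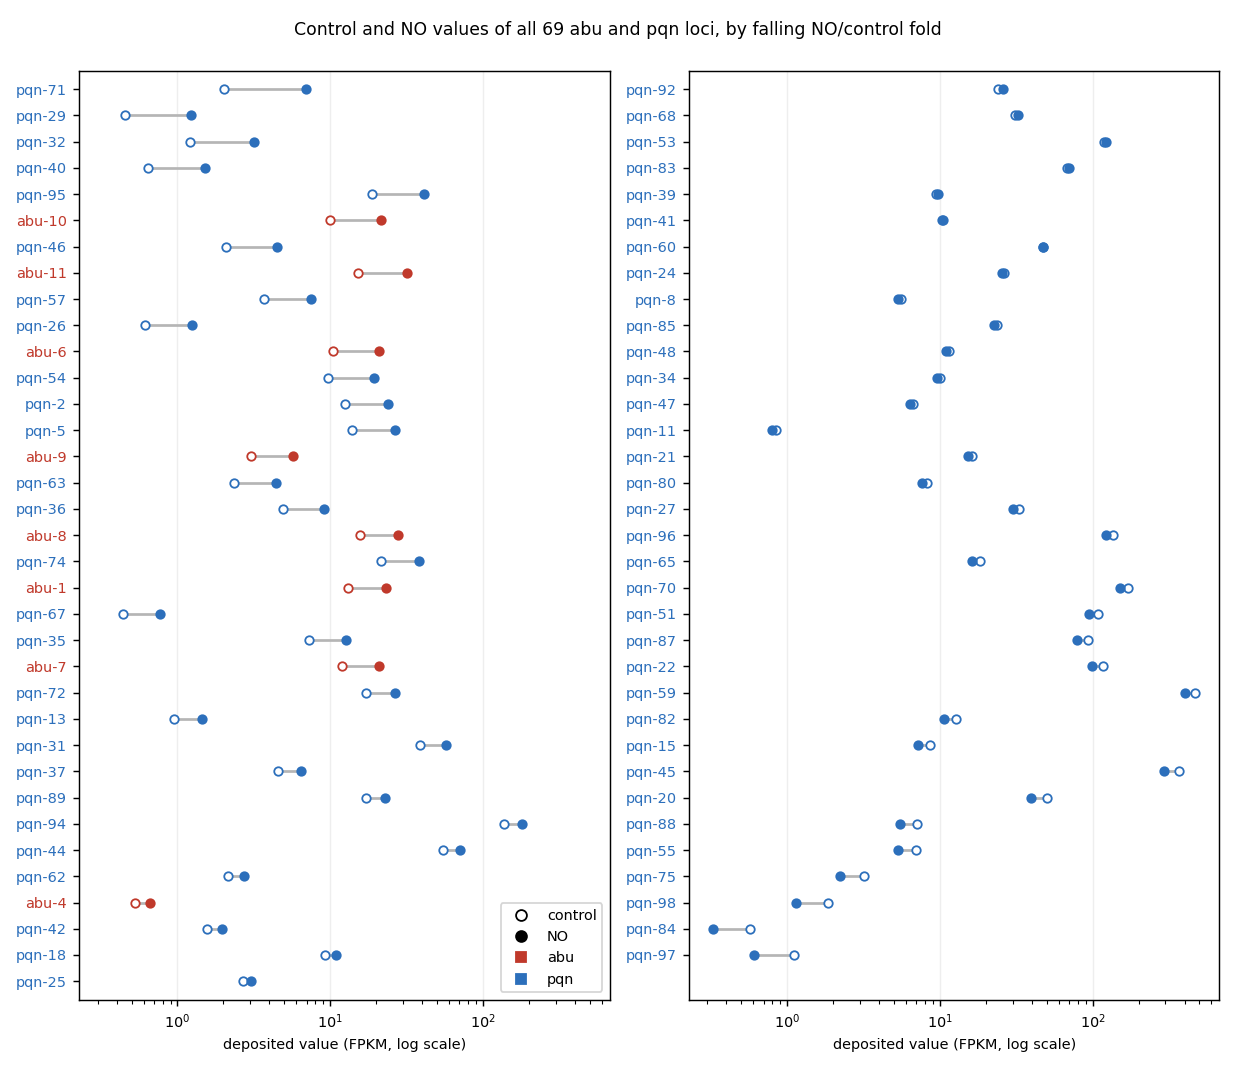
Each row is 1 of the 69 loci, with its control value (open circle) and NO value (filled circle) in FPKM on a log axis, abu in red and pqn in blue, ordered by falling fold over both panels. The 8 abu loci all lie in the left panel, mixed with pqn loci, and the right panel holds only pqn loci. Farthest down of the abu loci is abu-4, which has the lowest level of them.

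Among the abu genes, 6 had means between 10 and 100 FPKM, and these 6 lay close together in level and in fold. In the authors' deposited table abu-11 had the highest mean level of them, at 15.1 FPKM in control and 31.6 FPKM after NO (log2 fold 1.06, standard error (SE) 0.46, unadjusted p = 0.0200). The deposited values of abu-10 were 10.0013 and 21.4 FPKM (log2 fold 1.10, SE 0.50, unadjusted p = 0.0281). Those of abu-6 were 10.4 and 20.9 FPKM (log2 fold 1.01, SE 0.50, unadjusted p = 0.0438). These were the 3 abu genes under an unadjusted p of 0.05, and each had an adjusted p of 0.99994. abu-8 was listed at 15.7 and 27.98 FPKM (log2 fold 0.84, unadjusted p = 0.0543), abu-1 at 13.1 and 23.1 FPKM (log2 fold 0.82, unadjusted p = 0.0792) and abu-7 at 11.9 and 20.8 FPKM (log2 fold 0.81, unadjusted p = 0.0912) in the deposited table. The control values of these 6 genes ran from 10.0013 to 15.7 FPKM and their NO values from 20.8 to 31.6 FPKM. These ranges run over genes with 1 value per condition each, not over replicates. The log2 folds of the 6 genes differed by an SD of 0.13, less than the median SE of 0.47 of a single fold, so no order among them can be read.

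The other abu genes were weakly expressed. The authors' deposited table listed abu-9 at 3.01 and 5.72 FPKM (log2 fold 0.92, SE 0.71, unadjusted p = 0.196), a fold like that of the 6 genes above with a wider error. Its entry for abu-4 was 0.525 and 0.665 FPKM (log2 fold 0.34, SE 0.99, unadjusted p = 0.730), with an SE larger than the fold. Summed over the 8 loci, the deposited level went from 79.7 FPKM in control to 152 FPKM after NO, a ratio of 1.91. All 8 abu genes have a coding sequence in the reference annotation (Ensembl release 115), of 339 to 445 codons in 2 to 7 coding exons. Such repeat proteins are encoded by close paralogs, so reads may have been shared between the genes, and the 8 folds need not be separate measurements.

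Precision set what could be called. An SE was derived from each deposited fold and its test statistic, and for abu genes its median was 0.49 on the log2 scale. The weakest called statistic of the whole table had a size of 3.75, and the largest of a member was 2.51. At the median SE of the abu genes, a log2 fold of 1.83, or 3.56-fold, would have been needed for a call. A 2-fold change of a single abu gene was therefore below what that test could call. The interval of 95% for abu-11 ran from 1.12-fold to 3.88-fold, and that of abu-7 from 0.914-fold to 3.35-fold, so the deposited data bound neither closely.

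**Figure D2:**
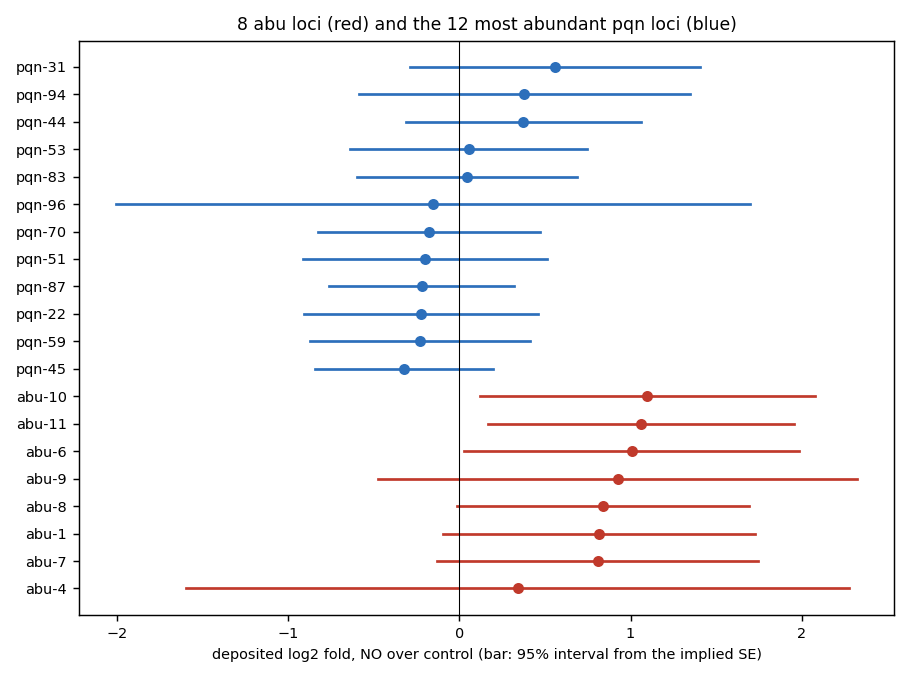
The deposited log2 fold of NO over control is shown for the 8 abu loci (red) and the 12 pqn loci of highest mean level (blue), with bars for the 95% interval from the implied SE. The intervals of abu-6, abu-10 and abu-11 lie above 0, those of the other 5 abu loci reach below it, and all 12 pqn intervals cross 0.

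A part of the pqn genes had values as far above control as the abu genes. A deposited fold of at least 1.5, a threshold chosen after the values were seen, was reached by 18 of 61 pqn loci (29.5%) and 7 of 8 abu loci in the higher direction, against 20.2% of all loci. Taken over all abundances the pqn share was thus not far from the background. The locus just outside was pqn-31 at 1.47-fold, and the one just inside was pqn-13 at 1.53-fold. In the lower direction 3 of 61 pqn loci and 0 of 8 abu loci reached 1.5-fold, against 7.44% of all loci.

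The pqn genes under an unadjusted p of 0.05 were pqn-71, pqn-95, pqn-2, pqn-54 and pqn-5. In the authors' deposited table pqn-71 had the largest fold of all members, at 2.00469 FPKM in control and 6.92 FPKM after NO (log2 fold 1.79, SE 0.71, unadjusted p = 0.0121, adjusted p = 0.776). pqn-95 was listed at 18.8 and 40.95 FPKM (log2 fold 1.12, SE 0.53, unadjusted p = 0.0357). The deposited values of pqn-2 were 12.5 and 24.03 FPKM (log2 fold 0.94, SE 0.47, unadjusted p = 0.0428), those of pqn-54 9.67 and 19.3 FPKM (log2 fold 1.0003, unadjusted p = 0.0449) and those of pqn-5 13.9 and 26.6 FPKM (log2 fold 0.94, unadjusted p = 0.0452). In level and in fold pqn-2, pqn-5 and pqn-54 lay within or close to the range of the 6 abu genes of middle abundance. The adjusted p of all but pqn-71 was 0.99994.

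Several abu and pqn genes are neighbours in the reference gene order, and the adjacent pairs had like values. abu-1 and pqn-2 are adjacent, with deposited control values of 13.1 and 12.5 FPKM and NO values of 23.1 and 24.03 FPKM. abu-9 and pqn-57 are adjacent too, both at a low level, with deposited values of 3.71 and 7.50 FPKM for pqn-57 (log2 fold 1.02, unadjusted p = 0.107). abu-6 and abu-7 form another adjacent pair, and abu-8 lies 7 genes beyond abu-7, with a log2 fold of 0.84 next to 0.81. Like folds were not limited to neighbours, since abu-10, abu-11 and pqn-54, in no pair found here, had log2 folds of 1.10, 1.06 and 1.0003. Of the pqn genes farther apart, pqn-20 was at 50.3 and 39.3 FPKM and pqn-21, 5 genes away, at 16.3 and 15.2 FPKM, both lower and at different levels. pqn-82 and pqn-41, 10 genes apart, had log2 folds of -0.25 and 0.03, with larger SEs of 0.45 and 1.68. Close copies, adjacent or not, may share reads, and the part of that in the likeness of their values was not tested.

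Other pqn genes reached 1.5-fold at low to middle levels without an unadjusted p under 0.05. For the most abundant of them, pqn-74, the authors' deposited table gave 21.5 and 38.04 FPKM (log2 fold 0.82, SE 0.50, unadjusted p = 0.102), and for pqn-72 17.1 and 26.5 FPKM (log2 fold 0.63). pqn-35 had deposited values of 7.25 and 12.7 FPKM, pqn-36 of 4.90 and 9.14 FPKM, pqn-63 of 2.36 and 4.40 FPKM and pqn-46 of 2.09 and 4.47 FPKM. At the lowest levels pqn-29 was listed at 0.455 and 1.23 FPKM, pqn-40 at 0.641 and 1.51 FPKM, pqn-26 at 0.614 and 1.24 FPKM, pqn-13 at 0.942 and 1.44 FPKM and pqn-67 at 0.440 and 0.773 FPKM. Folds of this size are common at such levels, since a deposited fold of at least 1.5 in the higher direction was found for 43.0% of all loci whose mean was under 1 FPKM, the range of pqn-29, pqn-26 and pqn-67, and for 26.9% of those between 1 and 10 FPKM, the range of pqn-40 and pqn-13. For pqn-32, at 1.20 and 3.19 FPKM, the SE of 2.03 was larger than the log2 fold of 1.41.

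The most abundant pqn genes had values on both sides of control, more of them below it. A mean above 100 FPKM in the authors' deposited table was found for 8 pqn loci, of which 2 were higher and 6 lower. pqn-59, whose product is the worm counterpart of the stress granule protein UBAP2L, was the most abundant member, in a locus joined with R119.2 and R119.3, at 470 and 402 FPKM (log2 fold -0.23, SE 0.33). In the same deposited table pqn-45 was at 367 and 294 FPKM (log2 fold -0.32, SE 0.27, unadjusted p = 0.226), pqn-70 at 171 and 151 FPKM, pqn-96 at 136 and 122 FPKM, pqn-22 at 116 and 99.6 FPKM and pqn-51 at 108 and 94.2 FPKM. The 2 higher ones were pqn-94, at 138 and 179 FPKM (log2 fold 0.38, SE 0.49), and pqn-53, joined in a locus with the chloride channel gene clh-6, at 118 and 123 FPKM. Next in level came pqn-87 at 92.6 and 79.6 FPKM, pqn-83 at 67.8 and 70.1 FPKM, pqn-44 at 54.5 and 70.7 FPKM and pqn-31 at 38.8 and 57.2 FPKM. Of these 12 loci 5 were higher and 7 lower, and none had an unadjusted p under 0.05.

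Values below control were usual for abundant genes. With 1 FPKM added to both conditions, the log2 ratio had a median of -0.19 over the 8 pqn loci above 100 FPKM and of -0.14 over all 1803 loci of that range, in which 23.4% of loci were higher after NO. Between 10 and 100 FPKM the median ratio was 0.87 over 6 abu loci, 0.05 over 24 pqn loci and -0.08 over all 6379 loci. In that range a deposited fold of at least 1.5 in the higher direction was reached by 6 of 6 abu and 6 of 24 pqn loci, against 9.80% of all loci. Between 1 and 10 FPKM it was reached by the 1 abu locus and 9 of 23 pqn loci, against the 26.9% of all loci given above, and above 100 FPKM by 0 of 8 pqn loci, against 5.44%. The lowest range, under 1 FPKM, held 1 abu locus that did not reach it and 6 pqn loci of which 3 did.

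**Figure D3:**
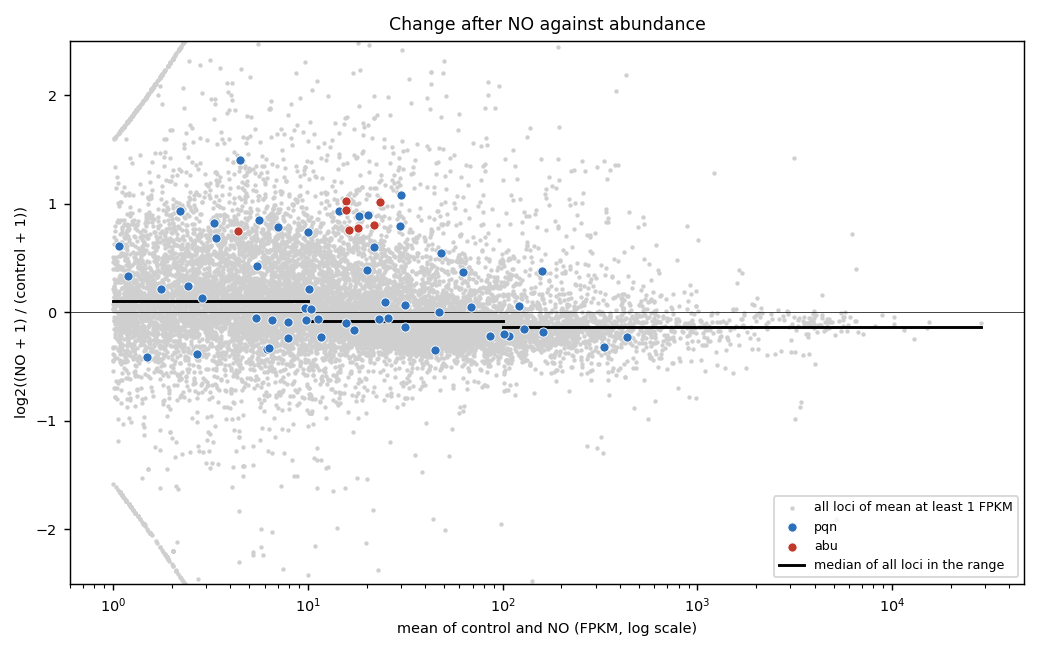
Each point is a locus whose mean reached 1 FPKM, with that mean on a log axis and the log2 of (NO + 1)/(control + 1) on the other, all loci in grey, 55 pqn loci in blue and 7 abu loci in red. Black lines are the medians of all loci in 3 ranges (0.11, -0.08 and -0.14), and 313 grey loci beyond 2.5 either way are not drawn. The abu points lie together between 0.74 and 1.03, while the pqn points spread from -0.41 to 1.40. Above 100 FPKM the pqn points lie near the line except pqn-94, at 0.38.

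Over the loci whose mean reached 1 FPKM, which 7 abu and 55 pqn loci did, the median log2 ratio was 0.80 for abu, 0.05 for pqn and -0.03 for all 14285 loci. The abu ratios ran from 0.74 to 1.03, and the quartiles of the pqn ratios were -0.16 and 0.58. The 7 abu ratios thus lay closer together than the 55 pqn ratios. The abu loci were far fewer, may share reads, and leave out abu-4 at this cut. Whether the spreads differed was not tested.

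A few pqn genes have roles known outside the pharyngeal lining, and 4 of them, chosen after their values were seen, are given here. pqn-47, later named myrf-1, encodes a membrane-bound transcription factor needed for molting, and the authors' deposited table gave it 6.71 and 6.35 FPKM (log2 fold -0.08, SE 0.41). pqn-85, later named scc-2, encodes a loader of the cohesin ring on chromosomes, and was listed at 23.7 and 22.6 FPKM (log2 fold -0.07, SE 0.29), for a locus it shares with the small RNA 21ur-15264. pqn-41, which encodes a glutamine-rich protein involved in the death of the male linker cell, was listed at 10.3 and 10.5 FPKM, with an SE of 1.68 that leaves its change undetermined. Within the pharynx, pqn-75 is expressed in gland cells rather than as a lining protein, and its deposited values were 3.18 and 2.21 FPKM (log2 fold -0.53, SE 0.58, unadjusted p = 0.366). The interval of 95% on the log2 scale ran from -1.66 to 0.61 for pqn-75.

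The largest differences in the lower direction were those of weakly expressed pqn genes. For pqn-98 the authors' deposited table gave 1.85 and 1.14 FPKM (log2 fold -0.70, SE 0.91), for pqn-97 1.11 and 0.605 FPKM (log2 fold -0.87, SE 1.09) and for pqn-84 0.570 and 0.328 FPKM (log2 fold -0.80, SE 0.91). Each SE was larger than the fold. At higher levels pqn-55 was listed at 7.02 and 5.33 FPKM, pqn-88 at 7.12 and 5.45 FPKM, pqn-15 at 8.63 and 7.19 FPKM, pqn-82 at 12.7 and 10.6 FPKM and pqn-20 at 50.3 and 39.3 FPKM, with log2 folds from -0.40 to -0.25. pqn-20 had the smallest unadjusted p of the lower members, at 0.224. No member was listed at 0 in either condition, and no member shared identical values with another locus.

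Loci that join a pqn gene with another gene carry a value that belongs to both. There were 10 such loci, holding pqn-15, pqn-22, pqn-41, pqn-51, pqn-53, pqn-59, pqn-60, pqn-85, pqn-89 and pqn-96. A deposited fold of 1.5 was reached by 0 of them in either direction, against 20.2% of all loci higher and 7.44% lower. All but pqn-15 had means above 10 FPKM. The higher share of all loci was 9.80% between 10 and 100 FPKM and 5.44% above 100 FPKM. In the authors' deposited table pqn-89 was the highest of them in fold, at 17.2 and 22.9 FPKM (1.33-fold), and pqn-60 was listed at 47.1 FPKM in both conditions. No abu gene was in a joined locus.

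Genes of pharyngeal muscle and of pharynx formation had values near control, those of the glands were in part as far above it as the abu genes, and none of these genes was called. Of 6 pharyngeal muscle genes 5 were measured, with 4 higher, 1 lower, 0 under an unadjusted p of 0.05 and a median log2 ratio of 0.13. In the authors' deposited table the pharyngeal myosin gene myo-2 was at 25.2 and 29.4 FPKM, the troponin C gene tnc-2 at 59.7 and 54.1 FPKM and the troponin I gene tni-4 at 111 and 112 FPKM. Among 7 regulators of pharynx formation 2 were higher and 5 lower, a median ratio of -0.01 and 0 under an unadjusted p of 0.05. The organ identity factor gene pha-4 was listed at 3.37 and 3.95 FPKM. Of 9 genes of the pharyngeal glands 8 were higher and 1 lower, with a median ratio of 0.40 and 0 under an unadjusted p of 0.05. A deposited fold of at least 1.5 in the higher direction was reached by 5 of these 9 (55.6%), against 20.2% of all loci. All 5 had means under 10 FPKM. Over all loci that share was 43.0% under 1 FPKM and 26.9% between 1 and 10 FPKM. Over all loci a fold of 2 in the higher direction was reached by 1961 of 16562. It was reached by 729 of 2277 loci under 1 FPKM and by 910 of 6103 between 1 and 10 FPKM. Of the 9 gland genes 3 reached it. These 3 were weakly expressed, namely phat-5 at 0.234 and 0.725 FPKM (3.09-fold), phat-1 at 0.990 and 2.41 FPKM (2.43-fold) and phat-2 at 4.33 and 8.84 FPKM (2.04-fold, unadjusted p = 0.101). Of the more abundant gland genes, lys-8 was highest in level, at 225 and 333 FPKM (1.48-fold, unadjusted p = 0.110). The gland gene phat-4 was listed at 31.5 and 37.6 FPKM (1.19-fold), and phat-6 at 14.7 and 12.6 FPKM.

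Genes for the lining itself and for molting lay on both sides of control, with more of them higher. A higher value was usual at low levels, found for 1511 of all 2277 loci under 1 FPKM. Between 1 and 10 FPKM it was found for 3765 of all 6103 loci. Of 9 listed lining and chitin genes 5 were measured, 4 higher and 1 lower, with 0 at an unadjusted p under 0.05. Of the 5, 2 reached 1.5-fold higher and 1 reached it lower, against 20.2% and 7.44% of all loci. For the transporter gene pgp-14, needed for the lipid barrier of the pharyngeal lining, the authors' deposited table gave 13.4 and 22.8 FPKM (log2 fold 0.77, SE 0.62), for the protease gene nas-7 9.81 and 16.2 FPKM (1.65-fold), and for the pharyngeal chitin synthase gene chs-2 1.69 and 1.81 FPKM. Among 13 measured of 15 molting genes 9 were higher and 4 lower. Of the 10 whose mean reached 1 FPKM, 6 were higher and 4 lower. An unadjusted p under 0.05 was reached by 2 of the 13 (15.4%), both higher, against 2.75% of all loci, with 0 passing the adjusted threshold. A fold of at least 1.5 was reached by 7 of the 13 (53.8%) in the higher direction, against 20.2% of all loci, and by 0 in the lower. All 7 had means under 10 FPKM. Over all loci that share was 43.0% under 1 FPKM and 26.9% between 1 and 10 FPKM. The 2 under an unadjusted p of 0.05 were mlt-8, at 5.19 and 13.96 FPKM (unadjusted p = 0.0482), and the Hedgehog-related gene qua-1, at 0.429 and 1.41 FPKM (unadjusted p = 0.0112). The other 5 at 1.5-fold were ptr-4 (2.40-fold), nas-36 (1.95-fold), mlt-10 (1.599-fold), lin-42 (1.58-fold) and bed-3 (1.56-fold), with control values from 0.533 to 3.44 FPKM. The 2 most abundant molting genes were lower. Of these, the molting regulator gene nhr-23 was listed at 34.7 and 30.9 FPKM and the molting protease gene nas-37 at 21.7 and 16.8 FPKM. The marker of adult epidermis col-19 was abundant, at 2294 and 1808 FPKM (unadjusted p = 0.210), in these worms taken 4 h after treatment at L4. Since the abu transcripts cycle with molting, a difference in stage between the groups could move with them, and its part in the values was not tested.

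The col collagen genes, which build the body cuticle, were set beside the members after their values were seen. Of 38 col loci between 10 and 100 FPKM, 25 (65.8%) had a deposited fold of at least 1.5 in the higher direction, against 9.80% of all loci of that range, and their median log2 ratio was 1.003, next to 0.87 for the 6 abu loci of that range. The 51 col loci above 100 FPKM had a median ratio of 0.17, the 24 between 1 and 10 FPKM one of 0.55, and all 113 whose mean reached 1 FPKM one of 0.56. Over all 125 col loci, 6 were called higher and 1 lower at an adjusted p of 0.05, against 0.386% and 0.0121% of all loci. A deposited unadjusted p under 0.05 was reached by 44 higher (35.2%) and 4 lower, against 2.75% and 0.338% of all loci. Whether col and abu loci differed was not tested.

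Genes of protein folding in the ER, where secreted proteins such as the abu products are made, had values at or just below control. Of 12 listed genes 10 were measured, 2 higher and 8 lower, with a median log2 ratio of -0.14 and 0 at an unadjusted p under 0.05. Most of the 10 had means above 100 FPKM, a range in which the median of all 1803 loci was also -0.14. In the authors' deposited table the ER chaperone gene hsp-3 was at 341 and 321 FPKM and the calreticulin gene crt-1 at 870 and 890.2 FPKM. The gene for the transcription factor XBP-1, in a locus joined with dnj-16, was listed at 220.5 and 220.8 FPKM, a level that does not show how the transcript was spliced. The corpse receptor gene ced-1, known to regulate abu genes, was listed at 21.8 and 20.6 FPKM, and octr-1, a neuronal receptor gene known to restrain them, at 2.64 and 3.37 FPKM. Of the 4 genes of this group 1 was higher and 3 lower, with 0 at an unadjusted p under 0.05.

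**Figure D4:**
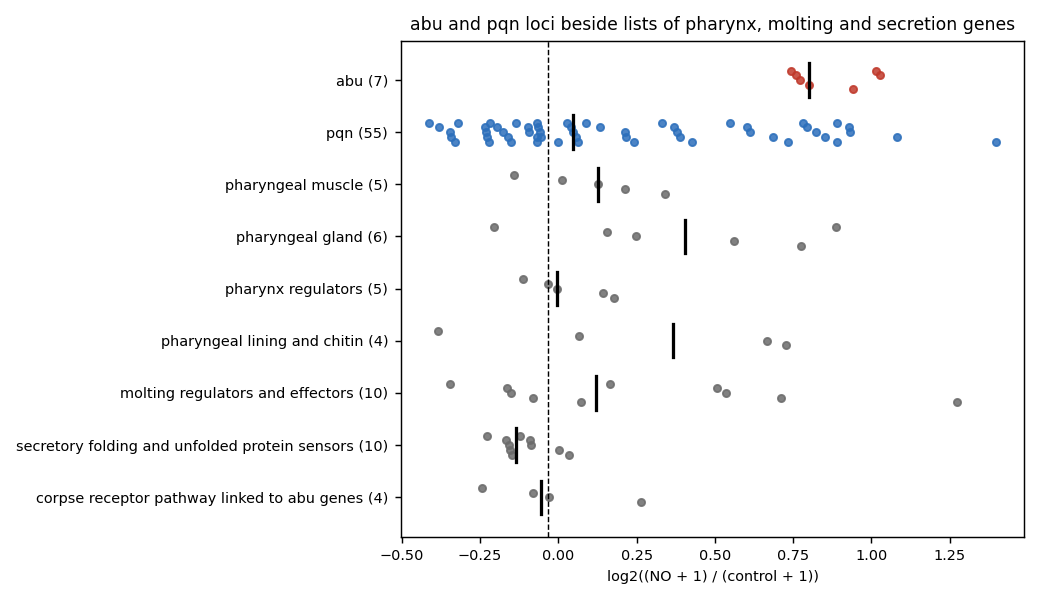
Points are values of log2((NO + 1)/(control + 1)), for loci whose mean reached 1 FPKM, by list (number of loci in brackets). Black bars are list medians and the dashed line is the median of all loci (-0.03). The 7 abu loci all lie at 0.74 or above, the folding genes lie in a narrow band around -0.14, and the pharyngeal muscle genes lie between -0.14 and 0.34.

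Outside the pharynx, markers of 5 other tissues had summed levels within 1.5-fold of control. In the authors' deposited table the 3 markers of body wall muscle summed to 815 and 905 FPKM, those of intestine to 195 and 190.4 FPKM, those of hypodermis to 2333 and 1850.4 FPKM, nearly all of it col-19, those of germline to 955 and 857 FPKM and those of neurons to 282 and 257 FPKM. Those of pharyngeal muscle, of which 2 of 3 were measured, summed to 84.9 and 83.4 FPKM, and the 4 gland markers to 48.6 and 62.1 FPKM. The other hypodermis markers were higher by less than 1 SE. dpy-7 (in a locus joined with glb-16) was listed at 0.691 and 1.17 FPKM (1.69-fold, log2 fold 0.75, SE 0.99). elt-3 was at 1.05-fold (log2 fold 0.08, SE 0.49). The ratio of the summed level was 1.91 for the abu loci, 0.983 for the pharyngeal muscle markers and 1.28 for the gland markers. Most of the gland sum was phat-4, and the median fold of the 4 gland markers was 1.56, with phat-1 and phat-2 above 2-fold. The part of gland or stage differences in the abu values was not tested.

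The reference gene table names 15 abu genes, of which 7 (abu-2, abu-3, abu-5, abu-12, abu-13, abu-14 and abu-15) were not analysed here. It names 56 pqn genes, of which 9 were not analysed here.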

How the data were processed

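Per the labels' protocols, total RNA from Trizol went into Illumina TruSeq RNA libraries. The submitters' processing notes name Cufflinks 2.0.5, TopHat2 2.0.2 and R 2.15.2. Settings, library scaling, annotation and genome build were not given in the sources used here. Coordinates are therefore left out. What the authors deposited is 1 table with a value per condition, taken as FPKM from its column layout, with replicates combined. The deposited fold (a ratio) equalled NO over control within 0.1% in all 15621 loci above 0 in both. Calls use the deposited p-value, adjusted over all 16562 loci, at 0.05. The deposited test statistic is a score, and the SE is the deposited log2 fold divided by it. Depth is unknown, so no counting interval is given, and with 2 samples a group the p-values may measure technical spread only. Since the table held no values of single samples, no count model or limma was run.

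From the values, log2((NO + 1)/(control + 1)) was computed with Python 3.11.15 and pandas 2.3.3 and summarised over loci whose mean reached 1 FPKM; the steps were tested on simulated data. Names matched a reference table (WBcel235) for 55 of 69 members, used for names and gene order. A coding length was found for 47 of 61 pqn genes (77.0%, under the 80% required), so that check was void for pqn. A split by cysteine share of the protein was not run, as no protein sequence was used here. Members and lists were chosen with earlier results of these data known. Genes named were members under an unadjusted p of 0.05, the 10 most abundant abu and 12 most abundant pqn, the 8 largest ratios each way, joined loci and up to 3 of each context list. Others, among them pqn-41, pqn-47, pqn-75 and pqn-85, weakly expressed members and some context genes, were named after their values were seen.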

Additional observations from a re-analysis of the deposited data

How the results depend on the processing

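No paired analysis was possible because the table holds 1 value per condition, and for the same reason no replicate could be left out. At an unadjusted p under 0.05, in place of an adjusted one, 3 abu and 5 pqn loci were higher and 0 lower. Adjusted thresholds of 0.01 and 0.1, adjustment over only the loci whose mean reached 1 FPKM, a minimum fold of 2, and leaving out joined or counting identical loci once left 0 calls in both families. Chosen after seeing the data, a deposited fold of at least 2 was reached by 3 of 8 abu and 9 of 61 pqn loci. At 1.5-fold these counts were 7 and 18. Over all 16562 loci, 1961 were at least 2-fold higher. Other counts at 1.5-fold, added after seeing the data (adding 1 FPKM, leaving out weak or joined loci, counting adjacent genes once, centring by abundance range), stayed within 1.5 times. The abu median ranged from 0.78 to 0.94 and the pqn median from 0.01 to 0.13 over pseudocounts, minimum means, centring and the other alternatives tried. Of 62 members, 5 with ratios within 0.07 of 0 changed sign on centring by abundance range, and none of the others did under the alternatives run. The splits by cysteine share were not run.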
